A study of Mus musculus with 11 samples.

Results

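Kif20a, the kinesin that was deleted, is described here with 9 other genes of the central spindle and of cytokinesis: Kif20b, Kif23, Racgap1, Ect2, Prc1, Aurkb, Plk1, Cit and Anln. The members were chosen by name, as the rows of 2 tables of normalized counts that carry one of these 10 symbols. All 10 were found among the 20475 genes of each table. All 10 also passed the filter on low values in both tables, a mean of at least 10 normalized counts, which left 13938 genes to test in the germline table and 14081 in the inducible table.

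Poly(A) RNA from mouse forebrain at embryonic day 12.5 was sequenced, and the study's text calls the tissue cortex. The question put to both tables is how gene expression differs between Kif20a knockouts and their controls. A normalized count is the number of reads on the exons of a gene after the authors equalized the libraries of a table. It is not divided by gene length, and it sums all exons of a gene, so the tables do not show where along the gene any RNA left after a deletion lies.

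The germline comparison has 3 wild-type libraries and 3 libraries from embryos homozygous for a knockout-first allele of Kif20a, in which a cassette with LacZ and a neomycin resistance gene follows exon 4. The study's supplement places the Kif20a signal left in the germline knockouts in the exons up to that cassette, without showing the data. All germline mice descend from 1 targeted ES cell clone. The Kif20a allele of the inducible comparison was made from knockout-first mice by removing the cassette, so both alleles come from that clone. The inducible comparison has 3 libraries from Kif20a fl/fl embryos carrying Nestin-CreERT2, whose mothers received tamoxifen at E9.5 and E10.5. Its 2 control libraries are labelled wild type. The study's text describes them as littermates of the knockouts, from mothers given tamoxifen. Elsewhere it takes Kif20a fl/fl littermates as controls, but the alleles of these 2 libraries are not stated. Nestin drives the recombinase in neural progenitors, so cells of blood and mesenchyme in the tissue are not its main targets. The summed normalized counts ran from 13048716 to 15551274 in the germline libraries and from 24118520 to 24497307 in the inducible libraries. These sums follow the authors' scaling and do not give the number of reads, which the tables do not state. Each table was scaled alone, so no level is compared between them.

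Germline knockout replicate 2 stood apart. On the first principal component, which held 58% of the variance, it lay at 91.23 and the other 5 germline libraries between -38.42 and 3.84. Genes of cranial mesenchyme (Col1a1, Col1a2, Col3a1, Twist1, Foxc1, Pdgfra) summed to 2.89% of the wild-type mean in this library, against 347% and 171% in knockout replicates 1 and 3. Col3a1, a fibrillar collagen and the most abundant of them, was at 2.46 normalized counts there and at 8253 and 4489 in the other knockouts. Neuronal genes (12, among them Map2, Tubb3 and Dcx) summed to 183% of the wild-type mean in replicate 2, against 48.5% and 60.0% in replicates 1 and 3. The knockout libraries of the germline comparison thus differ from each other in the RNA of these cell types, and in bulk tissue fewer cells of a type and less RNA per cell cannot be told apart.

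The inducible groups differed in their Y-linked RNA. Kdm5d, Eif2s3y, Uty and Ddx3y, which lie on the Y chromosome, summed to 1.96 and 4.24 normalized counts in the 2 controls and to 3209, 2389 and 3101 in the 3 knockouts, and 4 of 4 were higher by at least 1.5-fold with an unadjusted P of 0.05 or less in limma. Sex and genotype cannot be told apart in the inducible comparison. In the germline comparison the same sum was 1714, 9.83 and 4582 in the wild-type libraries and 4.49, 0 and 1376 in the knockouts. Both groups thus held libraries with high sums and libraries with very low sums. With all 6 libraries limma called 0 of the 4, with 0 at an unadjusted P of 0.05 or less, but 4 were past fold and P without wild-type replicate 2, 3 without knockout replicate 3 and 4 with replicate numbers as a block. In the inducible table, 106 of the 17402 genes with a value above 0 are written with 2 decimals and all others with 4 to 9. The 106 include Kif20a, none of the other members, and all 4 Y-linked genes. Of the 106, 83 passed the rule of a fold change of at least 1.5 with an unadjusted P of 0.05 or less. Over all tested genes 182 of 14081 (1.29%) passed it. In row order, 104 of the 106 stand out of the order of the germline table, as do 146 rows in all. Why these genes are written differently was not tested. The study reports a list of genes that differ in the inducible knockouts, at the same limits of fold and P. Whether the 106 are that list was not tested. Rows picked by their difference in these libraries would often pass the rule, so the 83 are a description only.

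When a cell divides, antiparallel microtubules between the separating chromosomes are bundled into the central spindle, which positions a contractile ring of actin and myosin and later becomes the midbody. Kif20a is a plus-end directed kinesin that carries the chromosomal passenger complex, with its kinase Aurkb, from the chromosomes to this bundle. In the embryonic cortex, progenitors that line the ventricle divide with a furrow that closes toward their apical surface, and the members are transcribed mainly in late G2 and mitosis.

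Kif20a RNA was lower in every knockout library than in any control library of the same table. In the germline comparison normalized counts were 2456, 2295 and 2680.2 in the wild-type libraries and 409, 374 and 503 in the knockouts. The knockout libraries thus held 16.5%, 15.1% and 20.3% of the wild-type mean, with replicate 2, the library that stands apart, lowest and close to replicate 1. Among the inducible libraries Kif20a was at 4760.1 and 4844 in the controls and at 3125, 2915 and 2853 in the knockouts. The knockouts thus held 65.1%, 60.7% and 59.4% of the control mean. These inducible values stand in a row of the different number format described above. The groups did not overlap in either table, and the share of RNA left was higher in every inducible knockout than in every germline knockout, a difference that was not tested.

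The germline means were 2477 ± 194 and 429 ± 67.1 (SD, n = 3 libraries each), and the inducible means 4802 ± 59.4 (n = 2) and 2964 ± 143 (n = 3). In limma, Kif20a fell by 2.54 on the log2 scale in the germline knockouts (standard error 0.15, 95% interval -2.89 to -2.18), lower in 3 of 3 libraries, with an adjusted p of 0.00845. It was the 1 gene of 13938 with an adjusted p under 0.05 (0.00717% of the genes tested). In the inducible knockouts Kif20a fell by 0.70 (standard error 0.06, 95% interval -0.83 to -0.56), lower in 3 of 3 libraries, with an adjusted p of 0.0107 in limma, and 5 of 14081 genes had an adjusted p under 0.05 (0.0355%). A two-sided exact permutation test over libraries gave p = 0.1 for the germline and p = 0.2 for the inducible comparison, each the smallest p that the number of libraries allows.

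The sizes of both decreases changed little when a library was left out, but the adjusted p did not always stay under 0.05. In the germline comparison it was 0.185, 0.135 and 0.146 without wild-type replicates 1, 2 and 3, and 0.106 without knockout replicate 1. In the inducible comparison it was 0.142 and 0.193 without control replicates 1 and 2, and 0.162 without knockout replicate 2. With replicate numbers as a block, the adjusted p from limma was 0.3 in the inducible and 0.0334 in the germline comparison. Under the rule of fold and unadjusted P, Kif20a passed each time.

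The exons of Kif20a overlap those of Cdc23, which encodes a subunit of the anaphase-promoting complex and is read from the opposite strand. They share 1259 bases, which are 32.3% of the exon bases of Kif20a and 26.5% of those of Cdc23. Cdc23 was at 2522, 2619 and 2620.5 normalized counts in germline wild-type libraries and at 1796, 1713 and 1987 in the germline knockouts. Every germline knockout lay under every wild-type library, with a log2 fold change of -0.50 (standard error 0.11). The adjusted p from limma was 0.779, lower in 3 of 3 libraries, and the change did not reach 1.5-fold. The germline knockout mean was lower than the wild-type mean by 755 normalized counts for Cdc23 and by 2048 for Kif20a.

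Among the inducible libraries Cdc23 was at 5098 and 5229.9 in the controls and at 5267, 5154 and 4912 in the knockouts. These groups overlapped, with a log2 fold change of -0.02 (standard error 0.05), and the means differed by 53.0 normalized counts, against 1838 for Kif20a. The labels and the study do not state how reads on either strand were assigned, so the part of shared bases in either gene's values was not tested. Genes nearby, Brd8, a bromodomain protein, and Cdc25c, a phosphatase that activates Cdk1, had log2 fold changes of 0.10 and -0.01 in the germline and 0.03 and -0.11 in the inducible comparison, and neither passed the rule of fold and P.

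**Figure D1:**
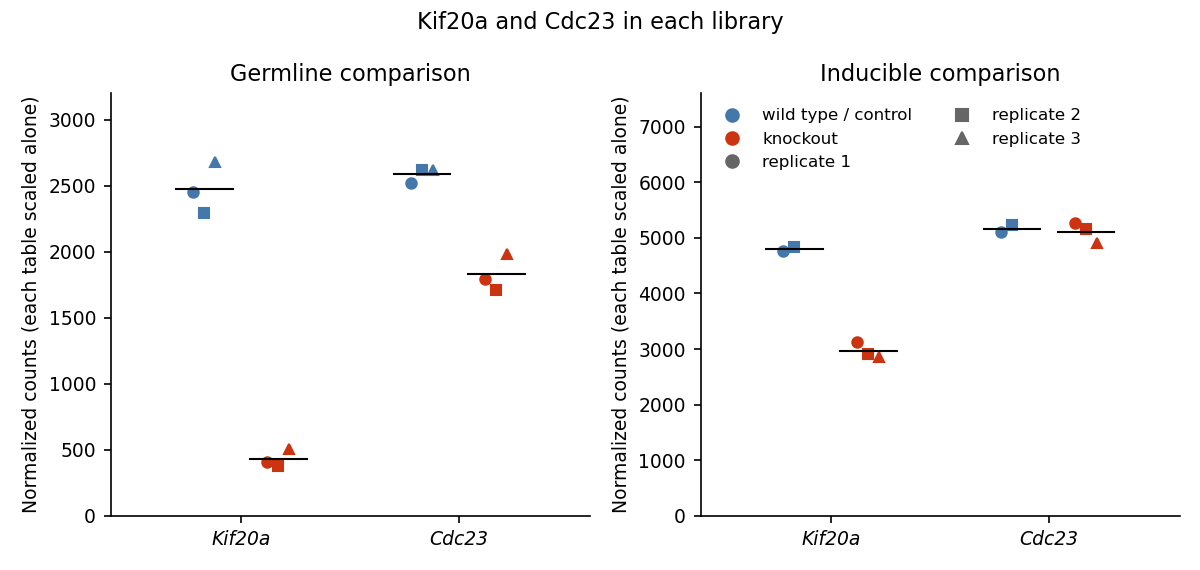
Normalized counts of Kif20a and of its overlapping neighbour Cdc23 in each library (points, shaped by replicate number; lines are group means), with an axis from 0 for each comparison. Kif20a knockouts sit at 374 to 503 in the germline and 2853 to 3125 in the inducible panel, and Cdc23 knockouts sit under the wild type in the germline panel only.

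Across the 6 germline libraries, the genes whose log2 values followed Kif20a most closely were Twsg1 (Pearson r 0.993), Wnk3 (0.992), Elp3 (0.989), Ranbp6 (0.986) and Cdc23 (0.986). Across the 5 inducible libraries they were Gnai2 (0.996), H1fx (0.995), Sox3 (0.994), Lrrn4 (0.994) and Kdm5c (0.994). These values are a description over libraries that fall into 2 groups, so a high r mostly records a difference between the groups. Kdm5c and Sox3 lie on the X chromosome, and Kdm5c was at a mean of 8252 in the controls and 6159 in the knockouts of the inducible comparison. The other members did not follow Kif20a as closely. Their r ran from -0.81 for Cit to 0.26 for Kif20b in the germline and from -0.31 for Kif20b to 0.74 for Cit in the inducible libraries.

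Divided by exon length, as normalized counts per kb, the members spanned a wide range in the controls. In the germline wild type Racgap1 (822 per kb) and Prc1 (795) were highest, followed by Ect2 (657) and Kif20a (636), then Kif23 (439.7), Plk1 (427) and Aurkb (380.5), then Kif20b (299.8) and Anln (257), with Cit (92.7) lowest. Neighbouring genes overlapped between libraries within each of these steps. Between the steps only Plk1, from 324 to 496, and Kif20b, from 256 to 325, overlapped. With its SD of 49.7 per kb over 3 libraries, Kif20a ranked 4 of 10. In the knockouts its mean was 110.1 per kb of all its exons, from 96.0 to 129, which overlapped Cit at 155, from 124 to 209. The order of these genes in the knockouts thus varied between libraries, and RNA confined to some of the exons would be spread over all of them in this value.

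In the inducible controls Racgap1 was again highest at 2156 per kb, before Prc1 at 1575. Aurkb (1263) overlapped with both Plk1 (1313) and Kif20a (1234) between libraries, while Plk1 lay above Kif20a in both. Ect2 (974), Kif23 (765), Anln (393), Kif20b (347) and Cit (171) followed without overlap between neighbours. Kif20a ranked 5 in the controls and 7 in the knockouts, at 761 per kb beside Kif23 at 764, so its RNA there remained above that of Anln, Kif20b and Cit.

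**Figure D2:**
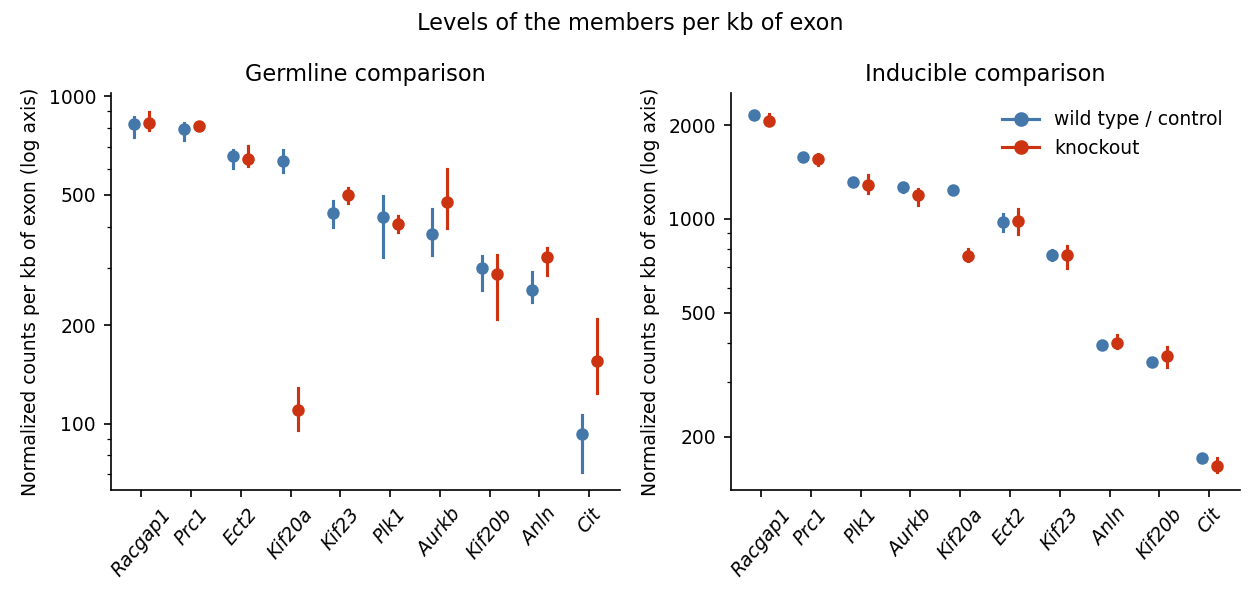
Normalized counts per kb of exon on a log axis (points, group means; lines, lowest to highest library), with members ordered by their level in the controls of each comparison. By group means Kif20a goes from rank 4 to rank 10 in the germline panel, where its knockout range overlaps that of Cit, and from rank 5 to rank 7 in the inducible panel, and levels are not comparable between panels.

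Genes transcribed in late G2 and mitosis often carry a short element near their start, TTTGAA, at which the DREAM and MuvB complexes act, and CCAAT boxes bound by NF-Y. RefSeq promoters of build GRCm38.p6, 250 bases before to 50 after a start, were available for 8 of the 10 members, all but Kif20a and Aurkb. TTTGAA on either strand occurred in 7 of these 8, Cit being the exception, and in 17.9% of all 32851 promoters of the same 300 bases. CCAAT on either strand occurred in 5 of the 8, Ect2, Kif23, Plk1, Prc1 and Racgap1, and in 37.4% of all promoters. The members were counted as genes with a match in any of their 10 promoters, while the percentages count single promoters. A match is a description and not a site of binding. The promoters of Prc1, Kif23, Racgap1 and Cit follow in the direction of the gene, with both motifs in capitals on either strand (reverse matches read ATTGG for CCAAT). Prc1 (chr7:80294201-80294500, + strand) and the centralspindlin pair Kif23 (chr9:61946750-61947049, - strand) and Racgap1 (chr15:99651607-99651906, - strand) show both motifs close to the start. Cit (chr5:115845406-115845705, + strand) has neither and is shown for contrast.
Prc1: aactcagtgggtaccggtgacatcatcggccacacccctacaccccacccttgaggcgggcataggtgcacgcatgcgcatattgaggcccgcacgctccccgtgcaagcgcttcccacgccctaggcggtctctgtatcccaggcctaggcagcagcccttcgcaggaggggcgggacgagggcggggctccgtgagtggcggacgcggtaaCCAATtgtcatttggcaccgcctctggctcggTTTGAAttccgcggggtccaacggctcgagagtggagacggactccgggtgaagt
Kif23: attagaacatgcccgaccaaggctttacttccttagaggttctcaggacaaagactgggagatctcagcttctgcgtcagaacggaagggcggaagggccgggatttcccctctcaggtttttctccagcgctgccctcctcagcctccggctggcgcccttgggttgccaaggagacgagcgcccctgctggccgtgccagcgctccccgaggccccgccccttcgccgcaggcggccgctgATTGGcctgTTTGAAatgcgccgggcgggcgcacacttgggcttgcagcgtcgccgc
Racgap1: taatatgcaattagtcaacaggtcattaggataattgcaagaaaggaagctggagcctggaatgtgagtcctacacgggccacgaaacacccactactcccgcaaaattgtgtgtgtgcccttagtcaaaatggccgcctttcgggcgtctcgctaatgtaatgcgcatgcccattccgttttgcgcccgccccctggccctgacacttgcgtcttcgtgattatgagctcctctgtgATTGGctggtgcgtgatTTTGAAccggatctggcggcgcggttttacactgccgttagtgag
Cit: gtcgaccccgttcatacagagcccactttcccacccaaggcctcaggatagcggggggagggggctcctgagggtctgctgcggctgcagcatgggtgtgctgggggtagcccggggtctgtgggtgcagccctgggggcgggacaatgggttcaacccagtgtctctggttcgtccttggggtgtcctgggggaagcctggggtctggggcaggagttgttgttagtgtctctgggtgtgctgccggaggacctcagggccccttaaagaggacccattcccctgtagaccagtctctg
TTTGAA begins 5 bases before the start in Prc1, 2 after it in Kif23 and 5 after it in Racgap1. CCAAT begins 37, 7 and 12 bases before the start in these genes. Prc1 has another listed start, not shown, where TTTGAA begins 30 and CCAAT 62 bases before it.

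Apart from Kif20a, the groups overlapped for every member in both tables, with the exception of Cit in the germline table. In the germline knockouts the log2 fold changes of these 9 ran from -0.09 to 0.72 with a median of 0.03 and 6 of 9 above 0, beside a median of -0.04 and 44.0% above 0 over all tested genes. Cit was the 1 of 9 past a fold change of at least 1.5 with an unadjusted P of 0.05 or less, a rule that 382 of 13938 genes passed (2.74%), 289 higher and 93 lower, and the 1 of 9 at an unadjusted P of 0.05 or less, as were 751 of 13938 genes (5.39%). It was also the 1 of 9 whose groups did not overlap, against 13.5% of all tested genes. The count of 382 genes ran from 157 to 1229 when a library was left out.

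In the inducible knockouts the 9 ran from -0.08 to 0.06 with a median of -0.02 and 3 of 9 above 0, beside a median of 0.00 and 49.2% above 0 over all tested genes. Of the 9, limma called 0 at an adjusted p under 0.05, 0 past the rule of fold and P (182 of 14081 genes, 1.29%) and 0 at an unadjusted P of 0.05 or less (846 of 14081 genes, 6.01%). None of the 9 had groups without overlap (0 of 9), against 22.6% of all tested genes. Their 95% intervals all lay between -0.24 and 0.23, which leaves a 1.5-fold change (0.58 on the log2 scale) outside each of them. In the germline comparison the intervals were wider, from -0.58 at the lowest to 1.31 at the highest.

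**Figure D3:**
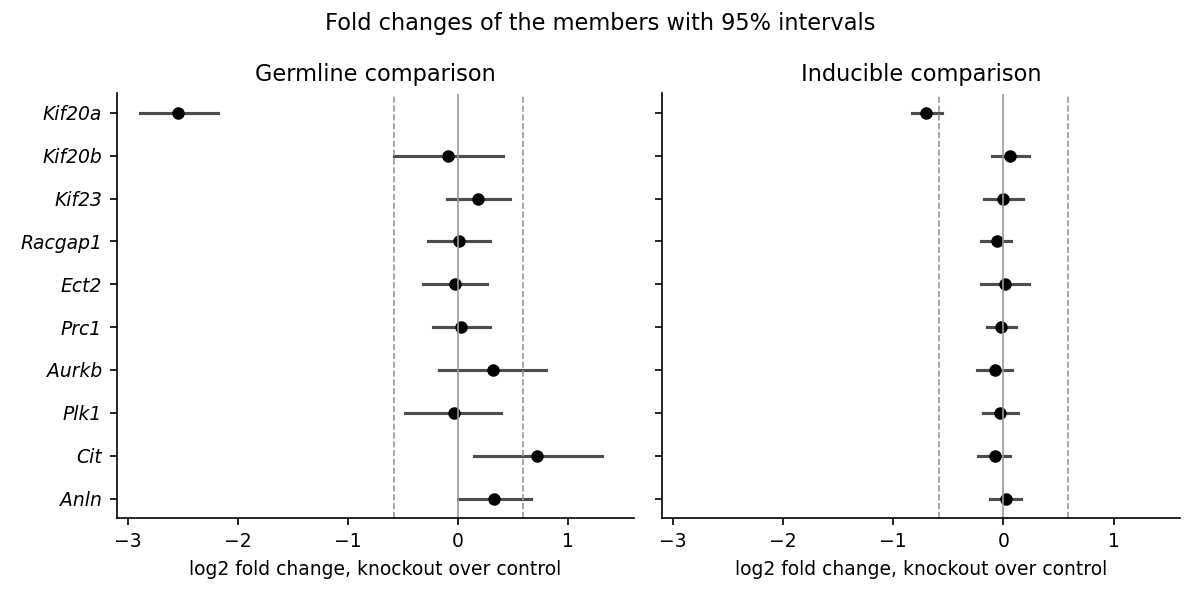
Log2 fold changes of knockout over control (points) with 95% intervals from limma (lines); the dashed lines mark a 1.5-fold change. Kif20a lies at -2.54 and -0.70, Cit at 0.72 in the germline panel, and all other points lie between the dashed lines.

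Prc1, which cross-links the antiparallel microtubules of the central spindle, was at 2899.5, 2560.1 and 2850.2 normalized counts in germline wild-type libraries and at 2820.1, 2809 and 2855 in the germline knockouts. All 3 knockout values lay inside the wild-type range, with a log2 fold change of 0.03 (standard error 0.11). In the inducible table Prc1 was at 5335 and 5639 in the controls and at 5609.8, 5191 and 5465 in the knockouts, again overlapping (-0.02, standard error 0.06).

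Kif20b, the nearest relative of Kif20a among the members, is a kinesin of the midbody that cortical progenitors need for abscission. It was at 1775, 1425 and 1808 in the germline wild-type libraries and at 1807, 1162 and 1821 in the knockouts. Knockout replicate 2 was the lowest of the 6 libraries and the other knockouts were at the top of the wild-type range. The log2 fold change was -0.09 (standard error 0.21) with all libraries and 0.13 without knockout replicate 2, and the interval of -0.58 to 0.41 covers 0. For the inducible deletion it was at 1926 and 1934 in the controls and at 2154, 2052 and 1857 in the knockouts, on both sides of the controls (0.06, standard error 0.07).

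Kif23 and Racgap1 form centralspindlin, the motor and GTPase-activating pair that bundles microtubules and recruits Ect2. Kif23 was at 1739, 1558 and 1871 in the germline wild-type libraries and at 1858, 2055 and 1941 in the knockouts, and Racgap1 at 2318, 2662 and 2595 and at 2420.3, 2762 and 2453. Knockout values of Kif23 were near or above the highest wild-type library and those of Racgap1 lay around the wild-type values, with log2 fold changes of 0.18 (standard error 0.12) and 0.01 (0.12). In the inducible comparison Kif23 was at 2889 and 3102 in the controls and at 3215, 3031 and 2732 in the knockouts, and Racgap1 at 6455 and 6795 and at 6658, 6216 and 6158. Both overlapped, at 0.00 and -0.06.

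Ect2, the exchange factor that activates the GTPase RhoA at the furrow, was at 2862, 2531 and 2884 in the germline wild-type libraries and at 2965, 2566 and 2577 in the knockouts. It was at 3828 and 4355 in the inducible controls and at 4503, 4157 and 3741 in the inducible knockouts. Knockout libraries lay on both sides of the control mean in each table, with log2 fold changes of -0.03 (standard error 0.12) and 0.01 (0.09).

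Aurkb is the kinase of the chromosomal passenger complex, the cargo of Kif20a. It was at 641, 702 and 888 in the germline wild-type libraries and at 853, 1169 and 774 in the knockouts. Knockout replicate 2 was the highest library and the other knockouts lay inside the wild-type range. The log2 fold change was 0.32 (standard error 0.20) with all libraries and 0.14 without knockout replicate 2. In the inducible table Aurkb was at 2393 and 2543 in the controls and at 2436, 2169 and 2391 in the knockouts, with 2 of 3 knockouts under both controls (-0.08, standard error 0.07).

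Plk1, a mitotic kinase that binds Kif20a and primes Racgap1 to recruit Ect2, was at 714, 1015 and 1093 in the germline wild-type libraries and at 895, 846 and 952 in the knockouts. All knockouts lay within the wild-type range, whose spread came from replicate 1 (log2 fold change -0.04, standard error 0.18). Among the inducible libraries it was at 2799 and 2988 in the controls and at 3039, 2666 and 2799 in the knockouts, which spread around the controls (-0.03, standard error 0.07).

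Anln encodes anillin, a scaffold that ties RhoA, actin, myosin and septins together in the ring. It was at 1337, 1274 and 1571 in the germline wild-type libraries and at 1843, 1867 and 1538 in the knockouts. Knockout replicates 1 and 2 were above all wild-type libraries and replicate 3 was not. The log2 fold change of 0.33 (standard error 0.14, 95% interval 0.00 to 0.66) passed neither threshold, with an adjusted p of 0.779 in limma and a higher value than the wild-type mean in 3 of 3 libraries. In the inducible comparison Anln was at 2128 and 2134 in the controls and at 2293, 2089 and 2121 in the knockouts, on both sides of the controls (0.02, standard error 0.06).

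Cit encodes citron kinase, which organizes the midbody ring and is needed for cytokinesis of neural progenitors, and also a shorter product made in neurons without the kinase domain. The tables hold the sum of both. It was at 686, 975 and 1017 in the germline wild-type libraries and at 1275, 2012 and 1197 in the knockouts. Every knockout was above every wild-type library, and replicate 2 was the highest by a wide margin, at 225% of the wild-type mean beside 143% and 134% in replicates 1 and 3. Cit was higher in the germline knockouts by a log2 fold change of 0.72 (standard error 0.25, 95% interval 0.14 to 1.31) in 3 of 3 libraries, with an adjusted p of 0.779 in limma.

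Cit no longer passed the rule of fold and P without wild-type replicate 1 (0.55) or without knockout replicate 2 (0.49), so of the 9 members 0 passed then. In the library where Cit was highest, the neuronal sum was also highest, at 183% of the wild-type mean. In knockout replicates 1 and 3, where Cit was also above the wild type, that sum was 48.5% and 60.0%. The part of neuronal RNA in the Cit value was not tested. In the inducible table Cit was at 1638 and 1647 in the controls and at 1643, 1529.8 and 1486 in the knockouts, so 1 of 3 knockouts lay between the controls and the others under them (-0.08, standard error 0.06). Whether the germline and inducible changes differ was not tested.

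**Figure D4:**
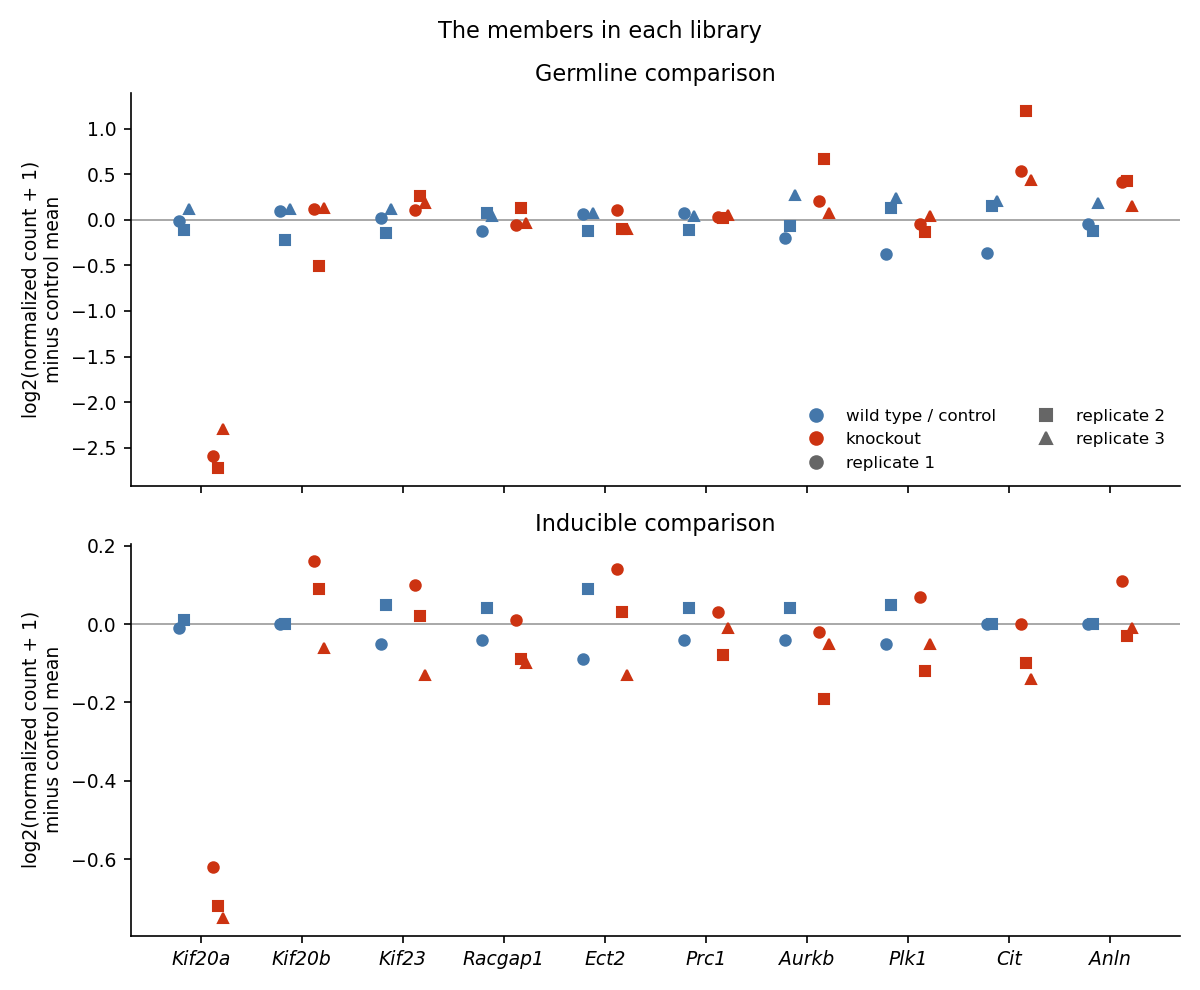
Log2(normalized count + 1) of each member in each library minus the control mean of its table (points, coloured by group and shaped by replicate), with a different vertical scale in each panel. Apart from Kif20a the farthest points are Cit at 1.19 and Aurkb at 0.67, both in germline knockout replicate 2.

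By library, the median of the 9 members relative to the wild-type mean was -0.05, -0.11 and 0.12 in the germline wild-type libraries and 0.11, 0.13 and 0.07 in the germline knockouts. It was -0.04 and 0.04 in the inducible controls and 0.07, -0.08 and -0.06 in the inducible knockouts. The median was thus no lower in knockout replicate 2 of the germline comparison, where single members moved farthest in both directions, than in the other libraries.

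Among the other genes of the same machinery, 1 passed the rule of fold and P, in the germline knockouts. Of 9 partners of Aurkb and Plk1 (the chromosomal passenger complex and mitotic kinases), limma called 0 past fold and P in either table, with 0 at an unadjusted P of 0.05 or less and medians of -0.03 and -0.02. Without germline knockout replicate 2 the germline count was 1. The medians of this list and of the 4 lists that follow were near 0 and some changed sign when a library was left out, with values from -0.15 to 0.09 in the germline and from -0.11 to 0.04 in the inducible comparison. The smallest P values in the germline belonged to Cdc14b, a phosphatase (log2 fold change 0.45), Incenp, the scaffold of the complex (0.20), and Cdk1, the main mitotic kinase (-0.13). Incenp was at 1505, 1784 and 2071 in the wild-type libraries and at 1788, 2510.0 and 1887 in the knockouts, with replicate 2 highest, as for Aurkb. For the inducible deletion, the smallest belonged to Ccnb2, a partner of Cdk1 (-0.13), Cdc14a (-0.11) and Incenp (-0.07).

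Of 20 contractile ring genes, 1 was past fold and P in the germline knockouts, against 2.74% of all tested genes. In the inducible knockouts 0 were, against 1.29%, and limma gave 1 at an unadjusted P of 0.05 or less, against 6.01%. The medians were 0.03 and -0.02. In the germline comparison 2 of the 20 were higher and 0 lower without overlap, against 13.5% of all tested genes. The gene past fold and P was Myh14, a nonmuscle myosin heavy chain, at 12.5, 21.3 and 13.0 in the wild-type libraries and 37.8, 23.5 and 32.1 in the knockouts. Its groups did not overlap, but its counts were among the lowest described here, and its call was lost without wild-type replicates 1 (0.84) or 3 (0.86) and without knockout replicates 1 (0.82) or 3 (0.93). Without knockout replicate 2, 2 genes of the list passed. The log2 fold change was 0.97 (standard error 0.40), with an adjusted p of 0.779 in limma and higher values in 3 of 3 libraries. The next smallest P values belonged to Diap3, a formin (0.22), and Sept7, a septin (-0.17). In the inducible comparison they belonged to the septins Sept2 (0.14) and Sept7 (0.15) and to the myosin Myh9 (-0.11).

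Of 25 genes of the midbody and abscission, 24 were tested, and limma called 0 past fold and P in either table, with 1 at an unadjusted P of 0.05 or less in each and medians of -0.06 and 0.01. The germline count was 1 without knockout replicate 3, and the germline median was -0.15 without knockout replicate 2 and with array weights. In the germline comparison the smallest P values belonged to Chmp1b (-0.35) and Chmp1a (-0.43), subunits of the ESCRT-III complex that cuts the midbody, and to Kif14, a kinesin that brings Cit to the midbody (0.30). Chmp1b was at 675, 677 and 723 in the wild-type libraries and at 591, 473 and 571 in the knockouts, lower without overlap. Kif14 was at 789, 793 and 921 in the wild-type libraries and at 1108, 1043 and 934 in the knockouts, higher without overlap. Of the 24 tested, 1 was higher and 1 lower without overlap in the germline comparison, against 13.5% of all tested genes. In the inducible table the smallest P values belonged to Rab11a, a GTPase of recycling endosomes (0.16), Prom1, a membrane protein shed with midbodies (-0.14), and Chmp2a of ESCRT-III (0.13).

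Of 9 other mitotic kinesins, limma called 0 past fold and P in either table. In the germline comparison 1 had an unadjusted P of 0.05 or less, the median was 0.05 and 6 of 9 lay above 0, and the count past fold and P was 1 without knockout replicate 3. Kif18b, which shortens microtubules, was at 433, 527 and 610.3 in the wild-type libraries and 627, 827 and 667 in the knockouts (0.44), and Kifc1, a minus-end directed motor, at 648, 696 and 782 and at 840.4, 1614 and 809 (0.55). Both were higher in every knockout, with replicate 2 highest, while Kif2c was not (-0.07). Of the 9, 2 were higher and 0 lower without overlap, against 13.5% of all tested genes. Among the inducible libraries the median was -0.05 with 1 of 9 above 0 and 0 at an unadjusted P of 0.05 or less, led by the depolymerase Kif2c (-0.09), by Kif4, a motor that binds Prc1 (-0.08), and by Kif22, a motor on chromosome arms (-0.06).

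Of 40 further G2/M genes, limma called 0 past fold and P in either table, with 1 and 0 at an unadjusted P of 0.05 or less and a median of -0.01 in each. Pttg1, the separase inhibitor securin, was at 121, 118 and 128 in the germline wild-type libraries and at 172, 161 and 176 in the knockouts, without overlap and at a log2 fold change of 0.47, under the 1.5-fold threshold. Of the 40, 1 was higher and 2 were lower without overlap, against 13.5% of all tested genes. The germline count past fold and P was 1 without wild-type replicate 3 and 1 without knockout replicate 3. Foxm1, a transcription factor of G2 genes, was at 1341, 1651 and 2035 in the wild-type libraries and at 2003, 3392 and 2003 in the knockouts, which overlapped (0.53). Cdc25b, a phosphatase that activates Cdk1, had 0.42. In the inducible comparison Cdc25b (-0.09), Sgol1, a guardian of centromeric cohesion (0.13), and Pttg1 (-0.15) had the smallest P values.

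The summed level of the 40 G2/M genes was 108%, 88.6% and 101% of the wild-type mean in germline knockout replicates 1, 2 and 3, and that of 30 S phase genes 98.4%, 75.0% and 107%. Replicate 2 was thus the lowest of the knockouts on both lists, most of all on S phase, where Rrm1, a subunit of ribonucleotide reductase, was at 3765 against 6274 and 6281. The summed level of the 10 members was 95.8%, 98.5% and 92.8%, which includes the decrease of Kif20a itself. Without Kif20a the other 9 summed to 109%, 112% and 104%, with wild-type libraries from 95.4% to 108%. In the inducible knockouts the G2/M sum was 106%, 97.7% and 93.7% and the S phase sum 105%, 98.3% and 98.2% of the control mean. Of the S phase genes limma called 0 past fold and P in either table, with 0 and 1 at an unadjusted P of 0.05 or less and medians of -0.12 and 0.02. Without germline knockout replicate 3 the count was 5 and the median -0.28, and without germline knockout replicate 2 the count was 0 and the median 0.03. The inducible median was -0.06 without control replicate 1.

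Lists of cell types beside the members showed where the tissue itself varied. The 10 radial glial progenitor genes had medians of 0.13 and -0.01, led in level by Vim, and the 6 intermediate progenitor genes -0.04 and -0.05, led by Neurog2 and by Eomes. The 12 neuronal genes had medians of -0.24 and 0.07. In limma 1 of these genes was past fold and P, Fabp7, a fatty acid binding protein of radial glia, which was lower in the germline knockouts (-0.80) and is named after its value was seen. That call was lost without wild-type replicate 1, and 2 radial glial genes were past fold and P without knockout replicate 3. The neuronal genes depended on the library that stands apart: without germline knockout replicate 2, 10 of the 12 were past fold and P with a median of -0.73, and 8 were with array weights. Without knockout replicate 1 their median was 0.10 and the count 0. Over all genes, 382 passed fold and P with all libraries, 1044 with array weights and 1229 without germline knockout replicate 2. The intermediate progenitor sum was also highest in that library, at 171% of the wild-type mean against 71.3% and 72.1% in knockout replicates 1 and 3. With that library left out the median of this list was -0.28, and it was 0.03 without replicate 1 of the knockouts. Its count was 1 without wild-type replicate 1, wild-type replicate 3 or knockout replicate 2. The inducible neuronal count was 1 without control replicate 1 or knockout replicate 3, and without control replicate 2 the inducible neuronal and intermediate progenitor medians were -0.04 and 0.03. In the order of these lists, limma gave 1, 1 and 0 genes with an unadjusted P of 0.05 or less in the germline and 1, 0 and 1 in the inducible comparison.

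The 6 endothelial genes, led by Kdr, had medians of -0.17 and 0.12, the 8 erythroid genes, led by Hba-a1, -0.12 and -0.09, the 6 cranial mesenchyme genes -0.56 and 0.02, and the 5 microglial genes, led by Csf1r, -1.45 and 0.24. Germline knockout replicate 2 held 44.1%, 26.6%, 2.89% and 4.17% of the wild-type sums of these lists. With all libraries limma called 0 of these genes past fold and P in either table and 0 at an unadjusted P of 0.05 or less. Without germline knockout replicate 2, 6 of the 6 mesenchymal genes were past fold and P with a median of 1.36, as were 1 endothelial gene (median 0.45), 2 erythroid genes (0.76) and 0 microglial genes (-0.02). Over all genes, 1229 passed in that fit, against 382 with all libraries. Without knockout replicate 3 the endothelial count was also 1. Other libraries moved these medians as well. Without wild-type replicate 3 the endothelial and erythroid medians were 0.14 and 0.29, and without knockout replicate 1 the mesenchymal and endothelial medians were -1.92 and -0.68. Without inducible control replicate 2, 1 erythroid and 2 microglial genes were past fold and P, and the mesenchymal and endothelial medians were -0.36 and -0.12, against 0.35 and 0.34 without control replicate 1. For the inducible deletion, the mesenchymal sum was 127% and 73.3% of the control mean in the 2 controls and 86.6%, 105% and 108% in the knockouts.

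Genes of hypoxia and glycolysis were higher in the germline knockouts. Ldha, which makes lactate from pyruvate, was at 6401, 6591 and 6119.6 in the wild-type libraries and at 16659, 15954 and 8146 in the knockouts, without overlap. Of the 12 genes of the list, 10 were higher past fold and P in limma and 0 lower, 0 of them with an adjusted p under 0.05. Over all tested genes 382 of 13938 (2.74%) were past fold and P, 289 higher and 93 lower. The median log2 fold change of the list was 1.86. The sum was 329.7%, 484% and 120.3% of the wild-type mean in replicates 1, 2 and 3. The count was 4 without wild-type replicate 1, 5 without wild-type replicate 2 and 3 without knockout replicate 1. The median was 1.26 without knockout replicate 2 and 2.73 without knockout replicate 3. In the inducible table limma called 0 of the 12 past fold and P and 3 at an unadjusted P of 0.05 or less, with a median of -0.15, which was -0.33 and -0.01 without control replicates 1 and 2. The part of these differences in the values of Cit or Anln was not tested.

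**Figure D5:**
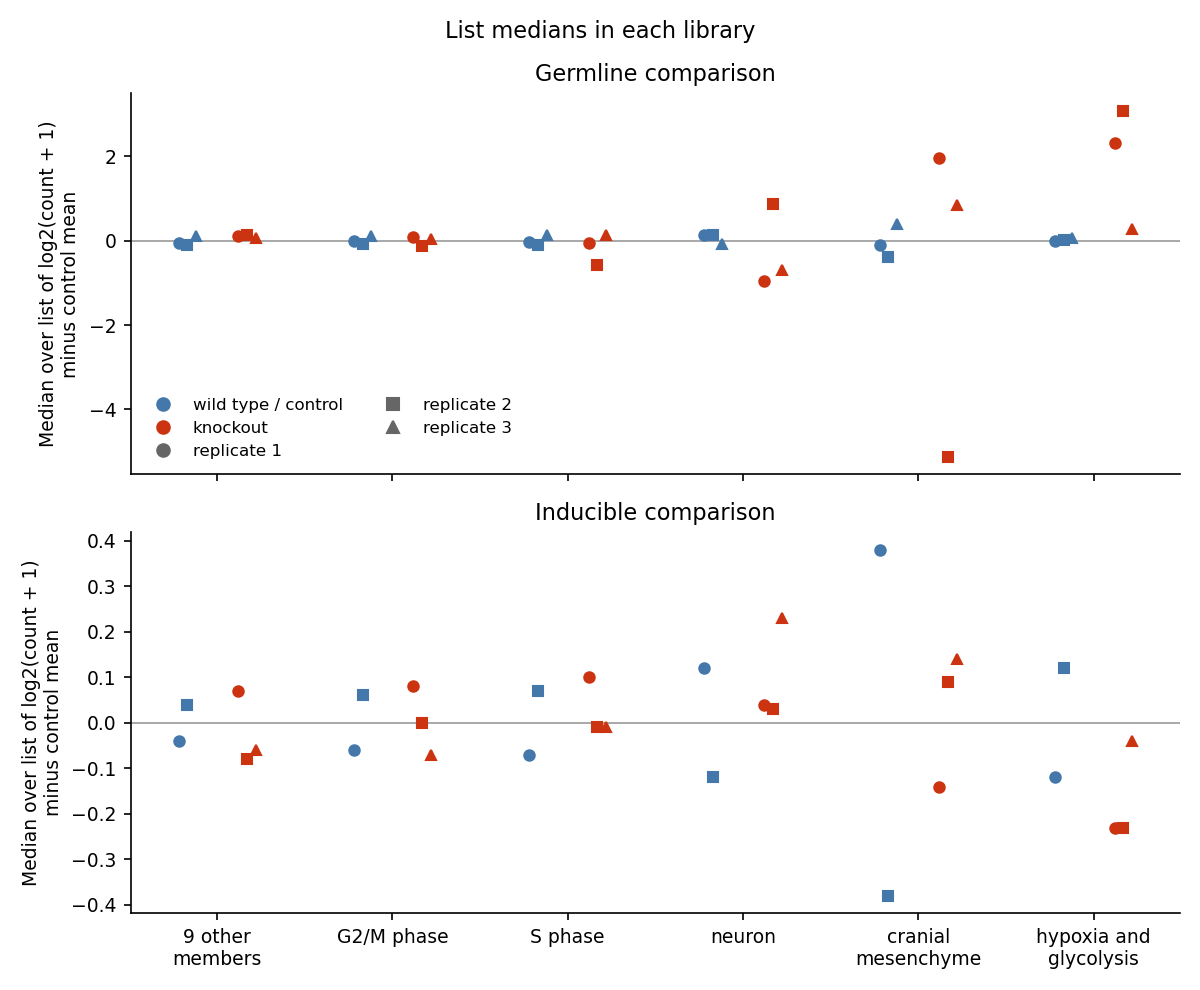
Median of each list in each library, on the scale of log2(normalized count + 1) minus the control mean (points, coloured by group and shaped by replicate), with a different vertical scale in each panel. In the germline panel replicate 2 of the knockouts lies at -5.13 for cranial mesenchyme and 3.08 for hypoxia and glycolysis. The median over the 9 members stays between -0.11 and 0.13 in the libraries of that panel, while single members moved farther.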

How the data were processed

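The deposited values are a signal per gene and library, which the authors made by aligning to mm9 with TopHat (1.2.0 in the labels, another version in the study's text), counting on RefSeq exons and scaling within each table by TMM in edgeR. Here log2(normalized count + 1) was fitted with limma 3.58.1 under R 4.3.3 (lmFit, eBayes with a trend, two-sided), each table alone, for genes with a mean of at least 10. P values were adjusted by Benjamini-Hochberg over all genes tested. Calls were an adjusted p under 0.05, or, after the study, a fold change of at least 1.5 with an unadjusted P of at most 0.05. The exact permutation test used scipy 1.17.1. Exon lengths are unions over protein-coding transcripts of GENCODE M1, on the genome build of the authors, and differ from the authors' gene models.

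Named genes are the members, Cdc23, in each of the 5 cytokinesis and mitosis lists those past fold and P or up to 3 with the smallest P, the most abundant gene of every other list, and the 5 genes per table with the highest r with Kif20a. The members and lists were chosen with earlier results of these data known. Alternatives were a pseudocount of 5, no filter, median-of-ratios scaling, quantile normalization, array weights, replicate numbers as a block, and leaving out each library. Running these also for the genes of the lists was chosen after seeing the data. The code was tested on simulated data.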

Additional observations from a re-analysis of the deposited data

How the results depend on the processing

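Kif20a was lower and past the rule of fold and P in all 12 germline and 11 inducible alternatives. Its log2 fold change was -2.66 to -2.44 in the germline and -0.74 to -0.67 in the inducible comparison when a library was left out, with adjusted p up to 0.185 and 0.193. The labels give no litter, and whether replicate numbers pair the libraries is not settled: deviations of libraries with the same number correlated at -0.12, 0.31 and 0.25 in the germline, the best match for 2 of 3 numbers, and at -0.35 and -0.05 in the inducible table, the best match for 0 of 2. With the replicate block, Kif20a was at -2.54 (adjusted p 0.0334) and -0.67 (adjusted p 0.3, a fit on fewer degrees of freedom). Of the other members, 0 passed fold and P in the germline with array weights (Cit 0.46), and 0 to 1 when a library was left out. The count over all genes was 1044 with array weights and 157 to 1229 with a library left out in the germline, and 357 with no filter and 126 to 322 with a library left out in the inducible comparison. The cause was not tested. Uncalled values near 0 changed sign. In the germline these were Kif20b (0.09 with array weights, -0.20 to 0.13 with a library left out), Racgap1 (-0.02 with quantile normalization, -0.07 with array weights, -0.05 to 0.05), Ect2 (0.00 with median-of-ratios scaling, 0.02 with array weights, -0.10 to 0.01), Prc1 (-0.02 to 0.07) and Plk1 (-0.23 to 0.08). In the inducible comparison they were Kif23 (0.00 with median-of-ratios scaling, 0.01 with array weights, 0.06 with the replicate block, -0.06 to 0.06), Ect2 (-0.08 to 0.11), Prc1 (-0.06 to 0.02), Plk1 (-0.08 to 0.02), Anln (-0.01 with array weights, -0.02 to 0.05) and Cdc23 (0.01 with the replicate block, -0.04 to 0.01). The cause was not tested. Of the named genes of the lists, Myh14 lost its call with the replicate block (0.97). With 3 libraries a group, the standard errors of Cit, Kif20b and Aurkb (0.25, 0.21 and 0.20) limit which germline changes can be seen. With a control left out of the inducible comparison, the lone control is assumed to vary like the knockouts.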
